A study of Rattus norvegicus with 4 samples.

Results

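The genes described here are those of the CD3 signalling chains of the T cell receptor (Cd3e, Cd3d, Cd3g and Cd247), the co-receptors Cd4, Cd8a and Cd8b, the surface proteins Cd2 and Cd5, and the inhibitory receptor Lag3, measured in the inner medulla of the rat kidney. They were chosen by symbol, with the row of highest summed value taken where a symbol has several; each of the 10 symbols stood on 1 row, so that step decided nothing. The 10 genes are among 35374 loci of the deposited comparison of the sexes, and 9 of them are among the 20307 loci that the authors tested. The choice was made with the results of this comparison already known, so the authors' test is given for each gene as a description and not as independent support.

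Total RNA of whole inner medulla was sequenced from male and female Sprague Dawley rats, an outbred stock, in 2 pools of male rats and 2 pools of female rats with 4 rats in each pool, so 8 animals per sex. The animals were 13 to 15 weeks old when bought, and all of them ate chow with 0.49% NaCl for 2 weeks, beginning at an age of 14 to 16 weeks; no other treatment was given. The male pools had 34552171 and 36978021 read pairs and the female pools 37630274 and 41945343, and 89.6% to 90.3% of reads were mapped. The deposited table joins the pools and holds a single FPKM per locus for males and another for females; FPKM scales fragments to the length of the transcript and the size of the library. The values therefore carry no SD, a pool that stands apart cannot be seen, and pooling hides the spread between animals. Beside each difference stands the p or the q of the authors' deposited table, where q is p after adjustment for the number of loci tested, and a locus is said to be called at a q under 0.05.

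The T cell receptor recognises peptides held by MHC molecules through its variable alpha and beta chains, and it has no signalling tail of its own. The CD3 gamma, delta and epsilon chains and the zeta chain, encoded by Cd247, carry the signal into the cell, where the kinase Lck, brought in by CD4 or CD8, phosphorylates them. LAG3 is an inhibitory receptor of activated T cells and some other lymphocytes; it resembles CD4 in structure, binds MHC class II and restrains T cell responses. In the healthy kidney, T cells are a sparse population among epithelial, endothelial and interstitial cells.

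Within this set the sexes differed in both directions. Cd3e and Cd3g were called lower in males, 0.651 against 2.15 FPKM and 1.34 against 4.64 FPKM in male and female inner medulla. Lag3 was called higher in males, 3.38 against 0.745 FPKM. The other 7 genes were not called, and all of them had a lower value in males than in females. So 2 of 9 tested genes were called lower in males, where 1.63% of all tested loci were, and 1 of 9 was called higher, where 0.719% of all tested loci were; in either direction the share was 2.34%. Among tested loci with mean levels in the range of these genes, 0.703% were called higher in males, 1.75% lower and 2.45% in either direction. An unadjusted p under 0.05 in the authors' deposited table was reached by 7 of the 9, against 9.77% of all tested loci. At a q under 0.10 5 of the 9 were called, against 3.4% of tested loci, and at a q under 0.01 only Lag3, against 1.55%. With p adjusted again over loci of mean FPKM at least 1 the same 3 genes were called, against 2.47% of those loci; at a mean of at least 5, where 2.34% were called, none of the 10 genes was left. These genes were picked with that comparison in view, and nothing is read from these shares.

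**Figure D1:**
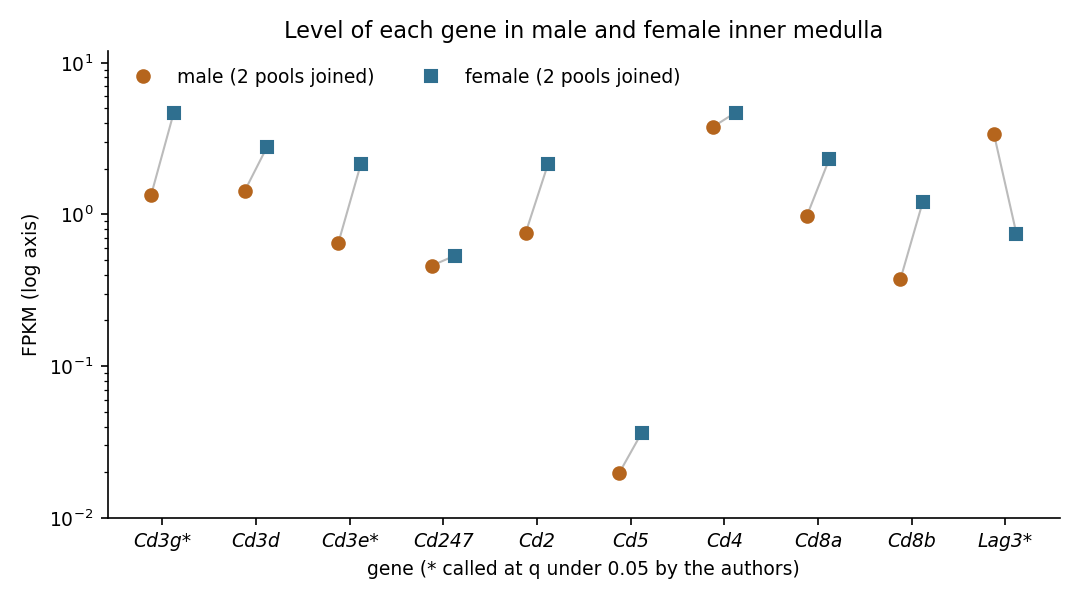
FPKM on a log axis (y) of each of the 10 genes (x) in male (circles) and female (squares) inner medulla, 1 value per sex with 2 pools joined; an asterisk marks genes called by the authors. Lag3 alone has the male value, 3.38, above the female one, 0.745, while Cd4 and Cd247 have nearly level pairs.

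The start regions of the CD3 genes are shown because Cd3g, Cd3d and Cd3e are neighbours on chromosome 8, each with a lower value in males, though Cd3d was not called. Cd247, on chromosome 13, was at 0.460 FPKM in males and 0.534 FPKM in females. Whether its ratio differs from theirs was not tested. Each sequence is taken from RefSeq, build GRCr8, and runs 5′ to 3′ on the gene's own strand from 250 bases before to 50 bases after its start. The regions are chr8:54183869-54184168 (minus strand) for Cd3g, chr8:54185269-54185568 (plus strand) for Cd3d, chr8:54211721-54212020 (minus strand) for Cd3e and chr13:80576019-80576318 (plus strand) for Cd247. Capitals mark AGGAAG, or its complement CTTCCT, a core bound by ETS transcription factors.
Cd3g: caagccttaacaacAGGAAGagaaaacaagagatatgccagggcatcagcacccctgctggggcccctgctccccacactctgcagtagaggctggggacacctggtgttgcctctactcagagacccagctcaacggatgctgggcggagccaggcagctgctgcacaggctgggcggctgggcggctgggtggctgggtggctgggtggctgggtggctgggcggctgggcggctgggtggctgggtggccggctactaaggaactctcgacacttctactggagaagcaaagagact
Cd3d: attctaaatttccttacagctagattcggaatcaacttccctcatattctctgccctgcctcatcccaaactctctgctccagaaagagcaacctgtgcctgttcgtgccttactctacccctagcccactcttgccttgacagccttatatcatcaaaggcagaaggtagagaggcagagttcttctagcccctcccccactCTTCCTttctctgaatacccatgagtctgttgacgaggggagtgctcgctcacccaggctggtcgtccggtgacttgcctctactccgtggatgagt
Cd3e: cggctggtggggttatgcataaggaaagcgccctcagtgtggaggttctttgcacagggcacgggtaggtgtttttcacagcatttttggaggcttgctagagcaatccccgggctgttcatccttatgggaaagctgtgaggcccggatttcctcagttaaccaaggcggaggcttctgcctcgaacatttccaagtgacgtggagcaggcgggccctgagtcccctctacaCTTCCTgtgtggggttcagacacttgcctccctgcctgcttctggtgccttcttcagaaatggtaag
Cd247: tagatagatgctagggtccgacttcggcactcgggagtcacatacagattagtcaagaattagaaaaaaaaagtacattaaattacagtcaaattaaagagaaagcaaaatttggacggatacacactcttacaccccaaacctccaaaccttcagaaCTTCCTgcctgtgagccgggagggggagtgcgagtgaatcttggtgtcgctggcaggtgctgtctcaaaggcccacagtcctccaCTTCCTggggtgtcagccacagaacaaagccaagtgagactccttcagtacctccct

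All 4 regions hold this ETS core, 1 time each in Cd3g, Cd3d and Cd3e and 2 times in Cd247, and so do 34.5% of the 33469 start regions in that table. TATAAA, the TATA box, is in none of the 4 on either strand, and is in 14.2% of all start regions. An E-box, searched as CAGCTG or CACCTG, stands 2 times in Cd3g and 1 time in Cd247 and is in 30.8% of all start regions. The RUNX motif TGTGGT is in none of the 4 but stands 2 times in Cd2. Cd3g holds repeats of ggctgggtggctgg and is richest in G and C, at 63.7% of its bases against 48.0% in Cd247. These matches are letters in a window and not bound sites. The table has such a region for 7 of the 10 genes, and Cd4, Cd8b and Lag3 are named here without one.

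The 3 CD3 chains that pair with each other, gamma, delta and epsilon, stand side by side in build rn5, as the deposited table gives it. Cd3g (chromosome 8, 47892426 to 47898776), the gamma chain, was at 1.34 FPKM in males and 4.64 FPKM in females, a log2 ratio of male over female of -1.79, and the authors' deposited table gives q = 0.0302. Cd3e (chromosome 8, 47915616 to 47926788), the epsilon chain, which pairs with either of the other 2, was at 0.651 FPKM in males and 2.15 FPKM in females, a log2 ratio of -1.73, and the authors' deposited table gives q = 0.0148. Cd3d (chromosome 8, 47900376 to 47905113), the delta chain, lies between them and was at 1.43 FPKM in males and 2.80 FPKM in females, a log2 ratio of -0.97. It was not called, and the authors' deposited table gives p = 0.0493 and q = 0.508. The gamma and epsilon chains thus had female values over 3-fold the male ones, 3.46-fold and 3.31-fold, and the delta chain 1.96-fold.

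Summed over these 3 chains the level was 3.42 FPKM in males and 9.59 FPKM in females, 2.80-fold higher in females. The balance of gamma to epsilon was alike in the sexes, with 2.06 FPKM of Cd3g for each FPKM of Cd3e in males and 2.16 in females. Delta to epsilon was 2.2 in males and 1.3 in females. Without values per pool none of these ratios has an error. In whole tissue, fewer T cells and less CD3 RNA per T cell cannot be told apart.

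The loci on either side of the CD3 cluster had close values in the sexes. Ube4a, a ubiquitin ligase gene that ends 2672 bases before Cd3g, was at 11.1 FPKM in males and 12.4 FPKM in females. Mpzl2, an adhesion protein gene beyond Cd3e, was at 24.4 FPKM in males and 24.2 FPKM in females. Neither was called, and the authors' deposited table gives q = 0.967 and q = 0.999.

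Cd247, the zeta chain (chromosome 13, 88876069 to 88950995), had 0.460 FPKM in males and 0.534 FPKM in females. Its log2 ratio was -0.21, and the authors' deposited table gives p = 0.674 and q = 0.999, so the fourth signalling chain had close values in the sexes where the gamma and epsilon chains differed over 3-fold. Natural killer cells also use the zeta chain. At 0.460 and 0.534 FPKM it lay above 7.09% of tested loci in males and 7.57% in females, a low level at which a moderate difference may not be detectable. Whether its ratio differs from those of the other chains was not tested.

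Among the co-receptors, the CD8 chains had lower values in males but were not called. Cd8a (chromosome 4, 164017632 to 164021869), the CD8 alpha chain of cytotoxic T cells and, in rats, of many natural killer cells, was at 0.972 FPKM in males and 2.31 FPKM in females. The log2 ratio was -1.25, and the authors' deposited table gives p = 0.0029 and q = 0.0920. Cd8b (chromosome 4, 163964374 to 163980435), the beta chain, which is more restricted to T cells, was at 0.373 FPKM in males and 1.21 FPKM in females. Its log2 ratio was -1.70, and the authors' deposited table gives p = 0.0059 and q = 0.144. Their neighbour Rmnd5a, a subunit gene of a ubiquitin ligase 5798 bases past Cd8a, was level at 28.1 FPKM in males and 26.8 FPKM in females.

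Cd4 (chromosome 4, 224399637 to 224426145), the co-receptor of helper T cells, which rat macrophages carry too, had the highest level of the set in both sexes. It was at 3.78 FPKM in males and 4.69 FPKM in females, a log2 ratio of -0.31, and the authors' deposited table gives p = 0.175 and q = 0.840. For each FPKM of Cd8a there were 3.89 FPKM of Cd4 in males and 2.03 in females. For each FPKM of the summed CD3 chains there were 1.10 FPKM of Cd4 in males and 0.489 in females. Cd4 therefore did not follow the CD3 and CD8 genes in size of difference, though the difference between them was not tested.

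Cd2 (chromosome 2, 223111197 to 223124565), an adhesion receptor of T and natural killer cells, was at 0.759 FPKM in males and 2.17 FPKM in females. The log2 ratio was -1.51, and the authors' deposited table gives p = 0.00295 and q = 0.0932. Its level for each FPKM of summed CD3 was 0.222 in males and 0.226 in females, the closest match to CD3 in the set. Cd5 (chromosome 1, 233835585 to 233856535), a scavenger receptor family protein that dampens receptor signalling, was at 0.0198 FPKM in males and 0.0365 FPKM in females and was not tested by the authors. Cd5 is a general T cell marker, but its level was far under that of Cd3e here, while its paralogue Cd6 was at 0.952 FPKM in males and 1.13 FPKM in females. Cd5 is also the only gene of the set listed under an Ensembl identifier and not an assembled one; of loci with a symbol, 5.20% of those with Ensembl identifiers were tested, against 86.1% of those with assembled identifiers. Whether that bears on its low value was not tested.

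Lag3 (chromosome 4, 224434681 to 224451161) ran against all of these. It was at 3.38 FPKM in males and 0.745 FPKM in females, a difference of 4.54-fold and a log2 ratio of 2.18. The authors' deposited table gives p = 5.00e-05 and q = 0.00391; that p is the smallest in the table and is shared by 260 tested loci, so it sets no rank among them. In order of level Lag3 stood at place 2 of 10 in males, between Cd4 and Cd3d, and at place 8 in females, between Cd8b and Cd247. It exceeded 43.7% of tested loci in males and 12.1% in females. Per FPKM of summed CD3 there were 0.987 FPKM of Lag3 in males and 0.0776 in females, 12.7-fold apart, and per FPKM of Cd4 there were 0.893 in males and 0.159 in females.

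Leaving Lag3 aside, the order of levels was similar in both sexes. In males it ran Cd4, Cd3d, Cd3g, Cd8a, Cd2, Cd3e, Cd247, Cd8b, Cd5, and in females Cd4, Cd3g, Cd3d, Cd8a, Cd2, Cd3e, Cd8b, Cd247, Cd5. With no spread between pools, it cannot be said which neighbours in these orders differ. The median log2 ratio of male over female was -1.11 over the 10 genes and -1.25 over the 9 without Lag3, against 0.0048 over all tested loci. Lower values in males were found for 9 of the 10 genes and for 49.2% of tested loci. Among the 8396 tested loci with a mean level in the range of the tested members, 0.497 to 4.24 FPKM, the median was -0.06 and 54.8% were lower in males.

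**Figure D2:**
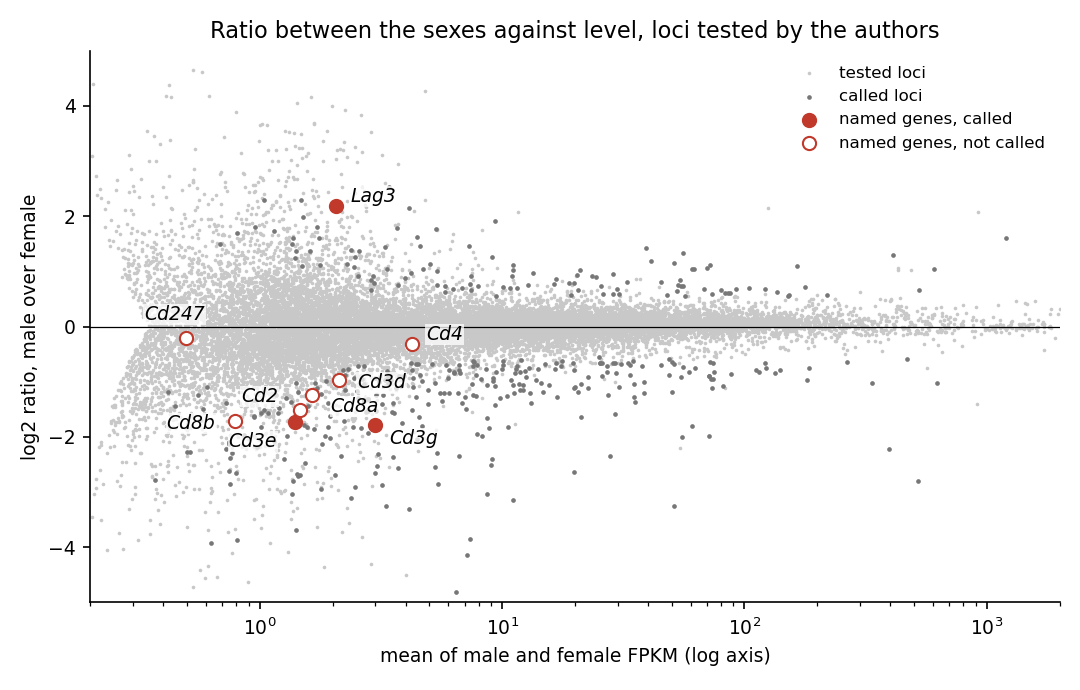
Log2 ratio of male over female (y) against the mean of both FPKM values on a log axis (x) for loci tested by the authors (light points) and called loci (dark points), with the 9 tested genes of the set in red, filled where called; values outside the axes are not drawn. Lag3 lies at 2.18, Cd3e and Cd3g at -1.73 and -1.79, in the range of low levels where the cloud of uncalled loci is also wide.

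The second deposited table, which lists loci at least 1.5-fold apart, holds 8 of the 10 genes and leaves out Cd4 and Cd247. Its signed fold runs female over male: in the authors' deposited table it is 3.46 for Cd3g, 3.31 for Cd3e, 3.26 for Cd8b, 2.85 for Cd2, 2.38 for Cd8a, 1.96 for Cd3d and 1.84 for Cd5. For Lag3 it is -4.54, the sign marking a higher male value.

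Lag3 lies 8535 bases past Cd4 on the deposited positions, and none of the neighbouring genes listed here was called. Ptms, the gene of parathymosin, a small acidic nuclear protein, begins 1978 bases past the Lag3 locus and was at 719 FPKM in males and 632 FPKM in females, a log2 ratio of 0.19, and the authors' deposited table gives q = 0.928. Mlf2, the next gene, was at 161 FPKM in males and 147 FPKM in females. On the other side, Gpr162, an orphan receptor gene before Cd4, was at 1.23 FPKM in males and 1.33 FPKM in females. The Ptms locus was thus far above Lag3 in level in both sexes and was not called. The interval listed for Lag3 spans 16481 bases and is also listed for 1 assembled locus without a symbol, which is at 0 in both sexes. Whether reads of neighbouring genes enter the Lag3 value was not tested.

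A list of 13 genes near Lag3 and Cd4 was tested in full; none was called or had an unadjusted p under 0.05, and 10 had higher and 3 lower values in males, with a median log2 ratio of 0.13. Cdca3, a cell cycle gene, was at 1.86 FPKM in males and 1.10 FPKM in females (the authors' deposited table gives q = 0.547), and Pianp was at 2.40 FPKM in males and 1.92 FPKM in females. Lrrc23 was at 0.392 FPKM in males and 0.177 FPKM in females, the widest ratio of the 13 at 2.21-fold, with p = 0.159 in the authors' deposited table. Of 14 genes listed as neighbours of the other members, 13 lay within 1 Mb of a member on the deposited positions; 13 were tested and none was called or had an unadjusted p under 0.05, with a median of 0.0087. The tested genes of this list included Ubash3b, at 1.02 FPKM in males and 1.40 FPKM in females, and Igsf3, at 4.80 and 3.93 FPKM in males and females.

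**Figure D3:**
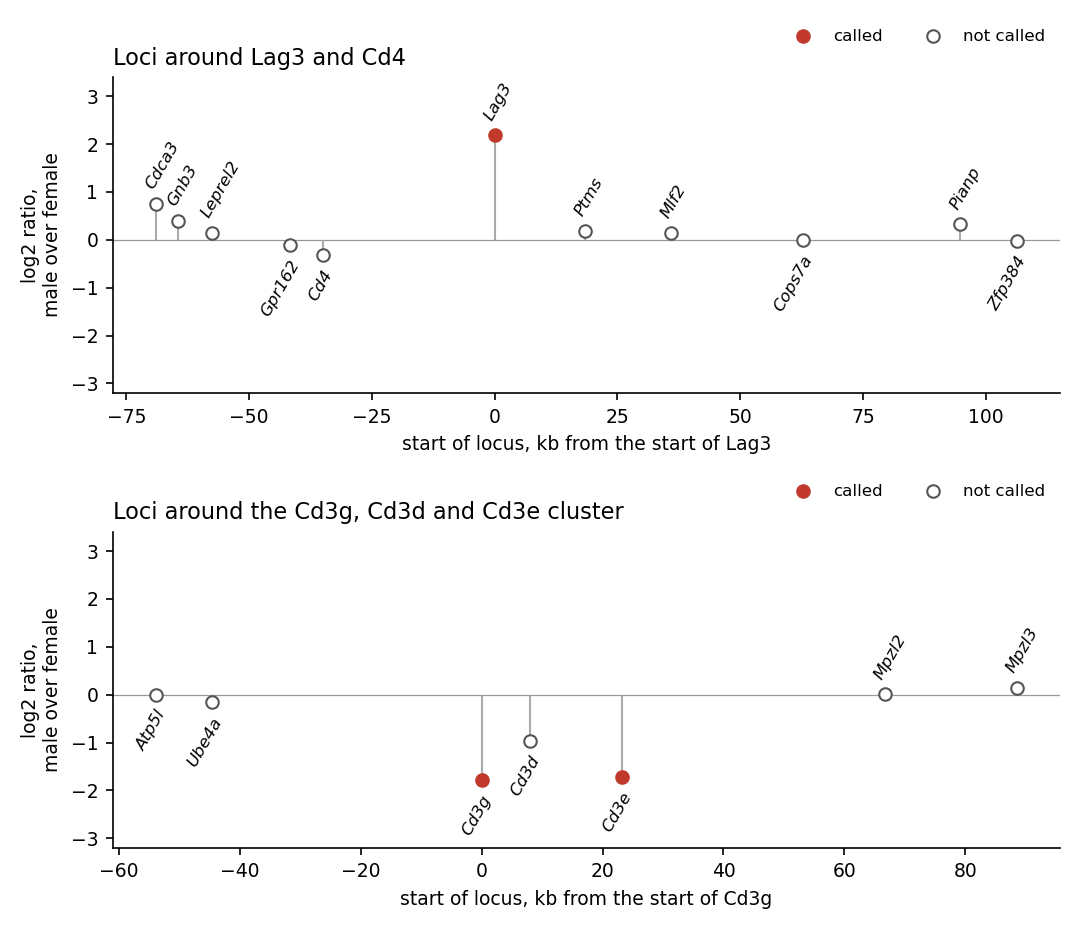
Log2 ratio of male over female (y) of tested loci with a symbol by distance of their start in kb (x) from Lag3 (upper panel) and from Cd3g (lower panel), filled where called by the authors. Lag3 stands at 2.18 among uncalled neighbours, with Cd4 at -0.31 and Ptms at 0.19, and Cd3g and Cd3e are the called loci of the lower panel.

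The receptor's own chains, added after their values had been seen, had lower values in males as well. Trac, the constant region of the alpha chain, was at 7.90 FPKM in males and 16.4 FPKM in females, 2.08-fold higher in females, and was called lower in males, and the authors' deposited table gives q = 0.00970. The locus named TCRB, of the beta chain, was at 1.42 FPKM in males and 3.07 FPKM in females, and the authors' deposited table gives q = 0.266. Of 6 loci of alpha chain variable segments none was tested, and 4 were at 0 in both sexes. For each FPKM of Trac there were 0.428 FPKM of Lag3 in males and 0.0454 in females.

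Of 29 genes of T cell receptor signalling and T cell surface receptors, 27 were in the table and 18 were tested, of which 1 was called. Il2rb, the beta chain of the receptor for interleukin-2 and interleukin-15, was at 0.597 FPKM in males and 1.77 FPKM in females, and the authors' deposited table gives q = 0.00970. Il2rg, the shared gamma chain, was at 1.41 FPKM in males and 2.76 FPKM in females (the authors' deposited table gives q = 0.120). The kinase Lck was at 1.49 FPKM in males and 2.76 FPKM in females, and the authors' deposited table gives q = 0.170, and Zap70, the kinase that docks on phosphorylated CD3 chains, was at 0.514 FPKM in males and 1.10 FPKM in females with q = 0.310 there. Ptprc, or CD45, the phosphatase found on all white blood cells, was at 1.01 FPKM in males and 1.80 FPKM in females, and the authors' deposited table gives q = 0.0502, just outside the threshold. Values were lower in males for 13 of the 18 and higher for 5, with a median log2 ratio of -0.26. The most abundant, Prkcq, a kinase gene active outside T cells too, was level at 35.4 FPKM in males and 34.0 FPKM in females. The 7 Gimap genes, GTPases of lymphocyte survival that were also added after their values had been seen, were all lower in males in value, with a median of -0.54. Gimap9 was called, at 2.22 FPKM in males and 4.36 FPKM in females, and the authors' deposited table gives q = 0.0372, while Gimap4, at 1.44 FPKM in males and 2.81 FPKM in females, and Gimap5, at 5.29 and 7.50 FPKM in males and females, were not.

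The other checkpoint genes were mostly too low to be tested. Of 13 inhibitory receptors and their ligands, 12 were in the table and 3 were tested, and none was called; 1 had an unadjusted p under 0.05. The receptors Pdcd1, Ctla4, Havcr2 and Btla were at 0.0219, 0.0329, 0.0124 and 0.0973 FPKM in males and at 0.0910, 0, 0.00526 and 0.00745 FPKM in females, all untested, and Tigit was listed at 0 in both. Of these, Ctla4, Havcr2 and Btla had the higher value in males, as Lag3 did, and so did Cd80, a ligand of CD28 and CTLA4, at 0.0419 FPKM in males and 0.0190 FPKM in females, also untested. Pdcd1 had the lower value in males, and so did Cd160, Lair1 and Pdcd1lg2, all untested. Those 3 were at 0.118, 0.0194 and 0.0121 FPKM in males and 0.168, 0.0473 and 0.0192 FPKM in females. Cd244, a receptor of natural killer and cytotoxic T cells, was at 0.138 FPKM in males and 0.476 FPKM in females, and the authors' deposited table gives p = 0.0255 and q = 0.364. Cd86, which binds CD28 and CTLA4, was at 1.81 FPKM in males and 2.16 FPKM in females. Cd274, also tested, had the higher value in males, at 0.532 FPKM against 0.494 FPKM in females.

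Among 12 ligands of LAG3 and genes of MHC class II, 7 were tested and 2 were called, both lower in males. RT1-Db1, a class II beta chain, was at 19.5 FPKM in males and 34.5 FPKM in females. RT1-Da, its alpha partner, was at 56.4 FPKM in males and 88.3 FPKM in females, and the authors' deposited table gives q = 0.00391 for RT1-Db1 and q = 0.0173 for RT1-Da. RT1 genes are close in sequence, so the division of reads between copies is uncertain. The other class II pair was not called: RT1-Ba had the higher value in males, 5.48 FPKM against 3.88 FPKM in females, and RT1-Bb was at 14.2 FPKM in males and 16.1 FPKM in females. Cd74, the class II invariant chain, was at 215 FPKM in males and 302 FPKM in females, and the authors' deposited table gives q = 0.0940. Lgals3, galectin-3, which has been described as a LAG3 ligand and is made by many cell types, was at 317 FPKM in males and 292 FPKM in females. Fgl1 and Clec4g, other described ligands, were listed at 0 in both sexes. The median of the tested genes was -0.18.

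Genes of cytotoxic and natural killer cells had the lowest median of the lymphocyte lists at -1.44, and all 9 tested ones had lower values in males. Nkg7, a protein of cytotoxic granules, was called, at 0.716 FPKM in males and 3.63 FPKM in females, 5.06-fold higher in females, and the authors' deposited table gives q = 0.0260. Perforin, Prf1, was at 0.177 FPKM in males and 0.797 FPKM in females, and granzyme B, Gzmb, at 0.104 and 1.38 FPKM in males and females; neither was called, and the authors' deposited table gives q = 0.135 and q = 0.157. The chemokine Ccl5 was at 1.44 FPKM in males and 3.89 FPKM in females (the authors' deposited table gives q = 0.170). Summed over the 16 genes of this list, the level was 7.48 FPKM in males and 18.6 FPKM in females. Ncr1, which marks natural killer cells, was at 0.0431 FPKM in males and 0.0905 FPKM in females, and Klrb1 was listed at 0 in both; neither was tested. Klrk1 and Klrd1, also of this list, were tested and not called. Klrk1 was at 1.16 FPKM in males and 2.12 FPKM in females, and Klrd1 at 0.119 and 0.394 FPKM. Whether natural killer cells have a part in the values of Cd2, Cd8a and Cd247 was not tested.

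None of the 8 tested transcription factors of T cell subsets was called in the authors' test; 2 had an unadjusted p under 0.05. Foxp3, of regulatory T cells, was at 3.32 FPKM in males and 3.80 FPKM in females. Zbtb7b, at 25.2 FPKM in males and 20.0 FPKM in females, and Gata3, at 100.1 and 115 FPKM in males and females, far exceeded any CD3 gene, and epithelial cells of the kidney express Gata3 too. The median was -0.09.

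**Figure D4:**
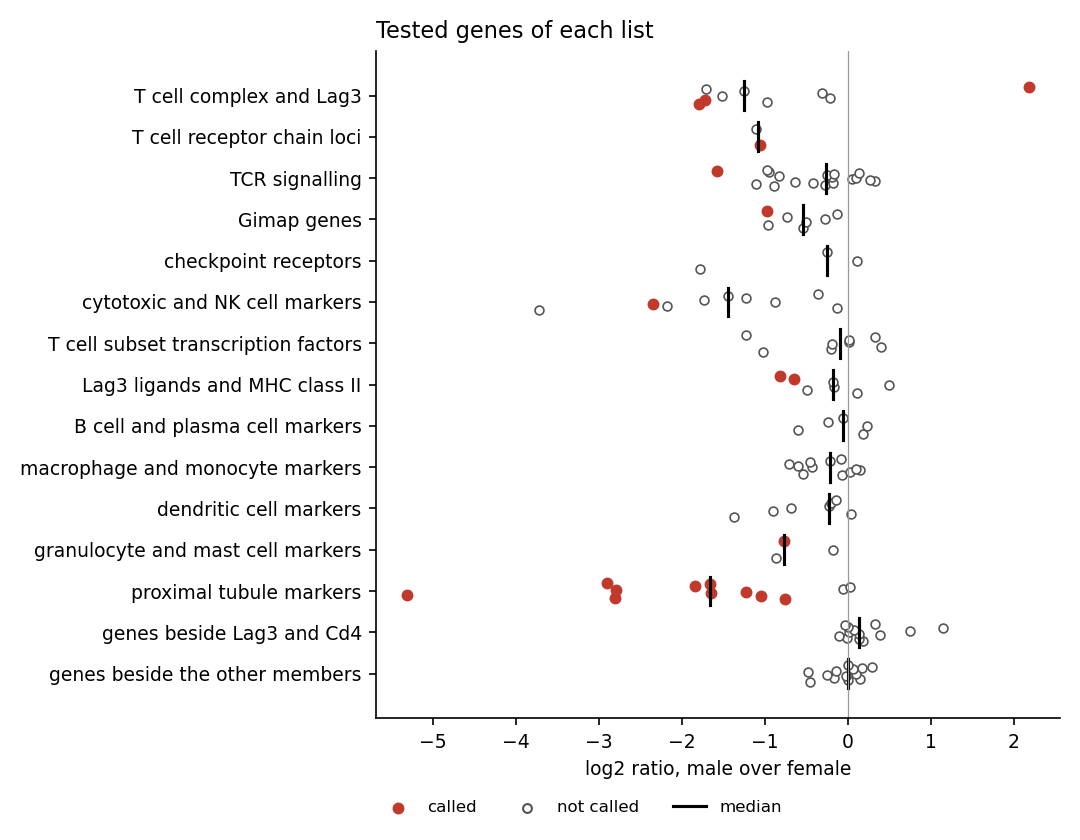
Log2 ratio of male over female (x) of every tested gene with a value above 0 in both sexes, by gene list (rows), filled where called by the authors, with a bar at each list's median. The row of the T cell complex has its median at -1.25 with Lag3 alone on the right at 2.18; cytotoxic and proximal tubule genes also lie to the left.

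Markers of other white blood cells were compared because Cd4 and Lag3 are not confined to T cells. Of 11 tested macrophage and monocyte markers none was called and 5 had an unadjusted p under 0.05; 8 were lower in males, the median was -0.21, and the list summed to 312 FPKM in males and 402 FPKM in females. Most of that sum is Lyz2, lysozyme, at 226 FPKM in males and 304 FPKM in females. C1qb, a complement gene of tissue macrophages, was at 5.64 and 9.21 FPKM in males and females, and C1qa at 5.59 and 8.48 FPKM. The 3 tested markers with higher values in males were Aif1, at 22.9 and 20.7 FPKM in males and females, Cd14, at 16.5 and 15.3 FPKM, and Adgre1, at 1.21 and 1.19 FPKM. Of 7 tested dendritic cell markers none was called, with 1 unadjusted p under 0.05 and a median of -0.22; the list summed to 149 FPKM in males and 166 FPKM in females, nearly all of it Bst2, at 143 and 158 FPKM. Irf8 was at 0.891 FPKM in males and 1.43 FPKM in females, Batf3 at 0.997 and 1.87 FPKM, and Siglech, which marks plasmacytoid dendritic cells in rodents, was listed at 0 in both sexes.

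Of 5 tested B cell and plasma cell markers none was called or had an unadjusted p under 0.05, with a median of -0.06 and sums of 299 FPKM in males and 285 FPKM in females. Those sums rest on Xbp1, at 156 and 163 FPKM in males and females, and Blnk, at 126 and 107 FPKM, which are not confined to B cells, while the defining markers Ms4a1, Pax5 and Cr2 were listed at 0 in both sexes. Jchain, found under its older symbol, was at 1.78 FPKM in males and 2.09 FPKM in females. Of 3 tested granulocyte and mast cell markers Kit was called, at 6.33 FPKM in males and 10.8 FPKM in females, and the authors' deposited table gives q = 0.00391, but Mpo, Fcer1a and Ms4a2 were listed at 0 in both sexes. S100a9 was at 0.981 FPKM in males and 1.11 FPKM in females, and the list summed to 8.05 FPKM in males and 13.1 FPKM in females.

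Markers of the proximal tubule, a segment of the cortex and outer medulla, mostly had lower values in males, as the CD3 genes did. Of 12 tested markers, taken up with their result known, 10 were called, all lower in males, and the 14 in the table summed to 178 FPKM in males and 1002 FPKM in females. Most of that is Kap; the other 13 summed to 46.7 FPKM in males and 91.7 FPKM in females. Their ratios ranged widely, with a median of -1.65; the called genes were Kap, at 131 FPKM in males and 910.0 FPKM in females, Slc22a7, an organic anion transporter, at 0.225 and 8.93 FPKM in males and females, Cyp2e1, at 0.583 and 4.35 FPKM, the endocytic receptor Cubn, at 0.344 and 2.40 FPKM, the phosphate transporter Slc34a1, at 9.63 and 16.2 FPKM, and Slc22a6, Slc22a8, Slc13a3, Gatm and Fbp1. Miox and Pck1 were tested and not called, at 20.3 and 4.01 FPKM in males and 21.1 and 3.94 FPKM in females. Slc22a2, of the same transporter family as Slc22a6 but outside this list, was called higher in males. It was at 5.82 FPKM in males and 1.00 FPKM in females. How much cortex or outer medulla the pools of each sex held, and its part in the CD3 values, was not tested.

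Of the 476 called loci, 305 had a single gene symbol that is no placeholder, a mean of at least 1 FPKM and values above 0 in both sexes, Lag3 itself left out. The 5 of them nearest to Lag3, by distance between their log2 FPKM in males and in females, were Slc27a3, an acyl-CoA synthetase family member, at 2.64 FPKM in males and 0.862 FPKM in females, Slc22a2, an organic cation transporter, at 5.82 and 1.00 FPKM, Slc16a4, of the monocarboxylate transporter family, at 3.16 and 1.44 FPKM, Chrd, a secreted antagonist of bone morphogenetic proteins, at 3.50 and 1.46 FPKM, and Lpo, lactoperoxidase, at 3.32 and 1.57 FPKM. Their distances, 0.415 to 1.08, rest on 2 values per gene.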

How the data were processed

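Groups were taken from the sample titles. Build rn5 is named in the submitters' processing notes, and so are Cufflinks 2.2.1, TopHat2 2.1.1, StringTie, cutadapt and FastQC, but not what each did. Per the file headers, the tables are laid out like Cuffdiff output, with a single column for each sex; the unit has no header, and the authors' values were taken to be FPKM, which Cufflinks reports. Nothing used here tells how libraries were scaled, what model the test had or whether strand was counted; each is "not given in the sources used here". Deposited p-values and q-values were made by the authors and copied here; q equals a Benjamini-Hochberg adjustment over the tested loci to within 5.26e-07. The deposited log2 ratio, handled as a score because infinities and spreadsheet errors stand in some cells, is male over female; it was computed again from FPKM, with a largest gap of 4.19e-05, without a pseudocount. Read pairs and mapping rates are from another table of the authors.

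The members and lists were chosen with earlier results of these data known, and 3 of the 14 lists were added after their values were seen. Named from each list were the called genes, the pair of largest absolute log2 ratio at a mean of at least 1 FPKM and the most abundant gene, and for Lag3 the 5 nearest called loci; other genes named were chosen after their values were seen. Of the genes this rule names, 2 are not reported here. Symbols were matched in any letter case, or by an older symbol in the RefSeq table of GRCr8. The planned limma fit needed values per pool and was not run. With 1 value per sex no counting interval can be set. Python 3.11.15, pandas 2.3.3, NumPy 2.4.6 and Matplotlib 3.10.9 were used, and the adjustment was tested on simulated data.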

Additional observations from a re-analysis of the deposited data

How the results depend on the processing

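No paired analysis was possible because the table joins both pools of a sex into 1 value; for the same reason no pool could be left out, and depth per gene is unknown. At q under 0.10 there were 5 members called (Cd8a and Cd2 joined Cd3e, Cd3g and Lag3) of 691 loci, and at q under 0.01 1 member, Lag3, of 314 loci. With p adjusted again over loci of mean FPKM at least 1, the same 3 members were called (7 left to test); over loci of at least 5, 236 loci were called and no member was left. Of all loci called, 206 lay within the level range of the tested members; this alternative and the count of 4 with Trac added were chosen after seeing the data. The median log2 ratio of the members was -1.05 with a pseudocount of 0.1, -0.67 with 1, -1.12 after centring on the median of tested loci of mean FPKM at least 1, and -1.25 both without Lag3 and over members of mean FPKM at least 1. Lag3 was at 2.04, 1.33 and 2.17 under the same pseudocounts and centring. Low levels limit these ratios: with a pseudocount of 1 Cd3e was at -0.93 and Cd5 at -0.02.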
